A study of Mus musculus with 3 samples.

Results

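The regions described here are short stretches of open chromatin that hold 1 match to the DNA motif of the zinc finger protein Plagl1, with the base A at position 5 of that match. They were chosen by 3 properties of the deposited motif search: exactly 1 site in the window, a site score below 6.8, and A at position 5, where position 1 is the site's 5′ base on the motif strand. Of 13500 windows of 201 bp, 4444 held any site, 3389 held exactly 1, and 3172 of those scored below 6.8. A stood at position 5 in 1480 of these 3172 windows and G in the other 1692, and no other base occurred there. The windows with A are called A windows below and those with G are called G windows.

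The windows come from ATAC-seq, which marks accessible DNA by transposase insertion, of cells from the apical parts of first molars of C57BL/6 mice at postnatal day 7.5. The series holds 2 control libraries of genotype Arid1a fl/fl and 1 mutant library of genotype Gli1-CreER;Arid1a fl/fl. All received the same tamoxifen treatment, 1.5 mg per 10 g body weight at postnatal day 3.5, and each library was made from 5000 cells. Cre activity follows the Gli1 gene, so Arid1a can be lost only in cells that express Gli1 at treatment and in their descendants. The deposited windows carry no value per library, so control and mutant were not compared. Read depth is unknown for every window, and no value has a replicate error. Which library a window was open in, and in which cells of the molar, is likewise not given by these values.

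Plagl1, also called Zac1, is an imprinted transcription factor that binds GC-rich DNA through C2H2 zinc fingers and restrains cell proliferation. Zinc finger proteins read DNA a few bases per finger. A motif site is a match of letters, not a measurement that Plagl1 was bound. ARID1A is a DNA-binding subunit of SWI/SNF complexes, which move and evict nucleosomes, and Gli1 is both a target and an effector of hedgehog signalling in the tooth root.

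The following sequences are the 8 most frequent A sites, each followed by the site that differs from it at position 5 alone. They are shown because they carry the comparison made here, and the capital marks position 5.

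Pair 1 with A: ccggAggccc
Pair 1 with G: ccggGggccc
Pair 2 with A: cgcgAggccc
Pair 2 with G: cgcgGggccc
Pair 3 with A: ctggAggccc
Pair 3 with G: ctggGggccc
Pair 4 with A: cgggAggccc
Pair 4 with G: cgggGggccc
Pair 5 with A: ggagAggccc
Pair 5 with G: ggagGggccc
Pair 6 with A: caggAggccg
Pair 6 with G: caggGggccg
Pair 7 with A: tgggAggctc
Pair 7 with G: tgggGggctc
Pair 8 with A: caggAggctc
Pair 8 with G: caggGggctc

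The first 2 A sites stood in 25 windows each, and their counterparts with G in 21 and 59. The A site of pair 3 stood in 23 windows against 12 with G. The A sites of pairs 4 and 5 stood in 22 windows each, against 7 and 16. Pairs 6, 7 and 8 had 21, 20 and 19 windows with A, against 8, 9 and 12 with G. In 7 of the 8 pairs the A site was thus the more frequent, and pair 2 went the other way. The A sites were picked for being frequent, so these counts are a description and carry no test.

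The A windows held 267 different sites, the 8 most frequent made up 177 windows (11.96%), and 45 sites occurred in 1 window each. The G windows held 289 different sites, of which the 8 most frequent made up 284 windows (16.8%). Leaving position 5 aside, the A and G windows together used 327 different combinations of the other 9 bases. Of these, 229 occurred with both A and G, and they covered 1363 A windows and 1326 G windows. A was the more frequent base in 100 of the 229 combinations and G in 87, with 42 tied.

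**Figure D1:**
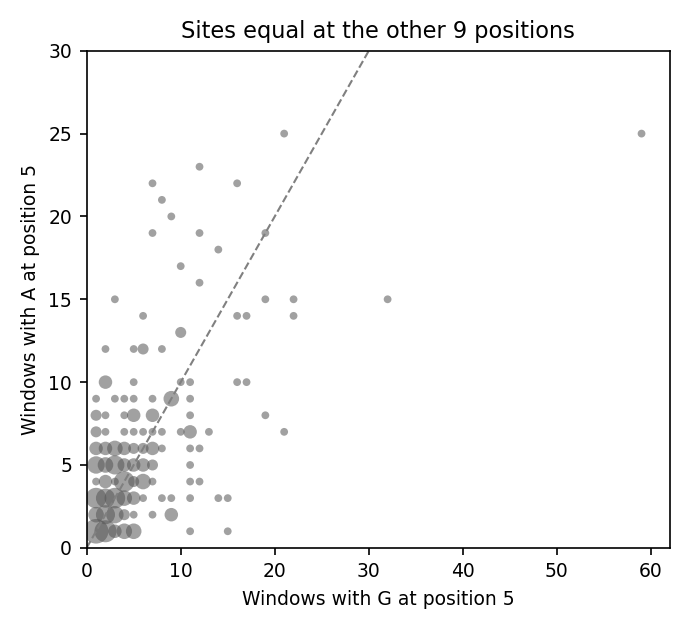
Number of windows with A (vertical axis) and with G (horizontal axis) at position 5 for sites equal at the other 9 positions. Each point is a pair of window counts, its area grows with the number of base combinations at that point, and the dashed line marks equal counts. Points lie on both sides of the line, and the farthest to the right has 25 windows with A and 59 with G.

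The motif search scores A and G at position 5 almost alike. A site with G scored 0.0723 above its counterpart with A in each of the 229 combinations. The lowest score of any listed site was 5.51, so a site with G below 5.58 can have no listed counterpart with A. That applied to 326 G windows (19.3%) with 43 different sites. Among them were a pair of the most frequent G sites, caggGggcgc with 56 windows at a score of 5.52 and cccgGggccc with 48 windows at 5.52, each with 0 A windows. The share of A was 27.0% (exact Clopper-Pearson 95% interval 23.2 to 31.0) in windows scoring below 5.6, and 56.6% (52.6 to 60.6) from 5.8 to 6. In the other bins it was 50.98% from 5.6 to 5.8, 43.1% from 6 to 6.2, 54.1% from 6.2 to 6.5 and 43.9% from 6.5 to 6.8. Without those G windows A made up 52.0% of the windows, against 46.7% (44.9 to 48.4) with them. A sites scoring less than 0.0723 below the limit of 6.8 stayed in, although their counterparts with G would score above that limit.

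Beside position 5, base shares of A and G sites lay apart at several positions, among them 1, 3 and 9. C stood at position 1 in 38.1% of A sites (95% interval 35.6 to 40.6) and in 47.6% of G sites (45.2 to 50.05). At position 3, C made up 7.84% of A sites (6.52 to 9.33) and 17.0% of G sites (15.3 to 18.9). A at position 3 went the other way, with 33.0% (30.6 to 35.5) against 24.3% (22.3 to 26.4), as did G, with 29.5% (27.2 to 31.9) against 20.8% (18.9 to 22.8). T at position 3 was rarer in A sites, as C was, with 29.6% (27.3 to 32.0) against 37.9% (35.6 to 40.2). At position 9, C made up 69.7% of A sites (67.3 to 72.1) and 62.6% of G sites (60.3 to 64.96), and G made up 3.99% and 8.39%. A CpG dinucleotide within the 10 bases occurred in 500 A sites (33.8%) and 828 G sites (48.9%). Among G sites that could have a listed counterpart the CpG share was 44.1% and C at position 3 made up 13.8%. These shares describe what the search returned and were not tested.

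The core was shared. G stood at position 4 in 99.1% of A sites and 99.5% of G sites, and C stood at position 8 in 88.8% and 89.1%. The 6 letters GAGGCC, positions 4 to 9 of a site, were in 851 A sites (57.5%). Read on both strands, the same letters occurred in 7697 of 32851 RefSeq promoter stretches of 300 bp (23.4%), and GGGGCC, which shares the palindromic GGCC with it, in 8204 (24.97%). At the limit set on the score, A windows just inside held tatgAggctc at 6.78, and cgagAggccc at 6.75 near Cnot11 and near Ncln. Other A windows tied at the score of these last, among them those near Stat6 and Twistnb. Just outside, aaagAggcca at 6.803 stood in the windows nearest to Dnah17, Zw10 and Ppm1m. On the strand there was little to tell the groups apart, with 52.4% of A sites and 51.3% of G sites on the plus strand. The site centre lay within 50 bp of the window centre in 53.7% of A windows and 51.5% of G windows.

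Whether the DNA around the site differed with the base at position 5 was asked with the 10 bases of the site taken out, since the rule itself removes a G from every A window. The rule still bears on the other 191 bases, because a further site there excludes a window. In the 1055 windows with 2 or more sites, 41.9% of sites of any score had A (95% interval 39.9 to 43.9). Median GC content of those windows was 68.7%, sites included. The effect of this exclusion on the comparison was not tested. A windows were poorer in G and C than G windows. Their GC content over the remaining 191 bases was 64.2% ± 9.57 (SD, n = 1480) with a median of 64.9%, against 67.5% ± 9.22 (SD, n = 1692) with a median of 68.1% in G windows. The lower and upper quartiles were 58.1 and 71.2% in A windows, and 62.3 and 74.3% in G windows, so the groups overlapped widely. Over the whole window, site included, the median was 65.2% in A windows and 69.2% in G windows, beside 66.7% in all 13500 windows and 66.2% in the 9056 without a site. The A median was thus the closer to that of the whole list. The difference outside the site, A minus G, was -3.32 percentage points (95% interval -3.94 to -2.71) in a linear model with errors clustered by chromosome. Its adjusted p was 9.4e-26 after Benjamini-Hochberg adjustment over the 5 comparisons made. The clusters were only 21 chromosomes and p was taken from the normal distribution. With so few clusters, p-values here and below can be too small and intervals too narrow. Mean GC content was lower in A windows on 20 of the 20 chromosomes that held both groups, with a difference of -0.88 points on chromosome X as the smallest and -7.36 points on chromosome 13 as the largest.

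**Figure D2:**
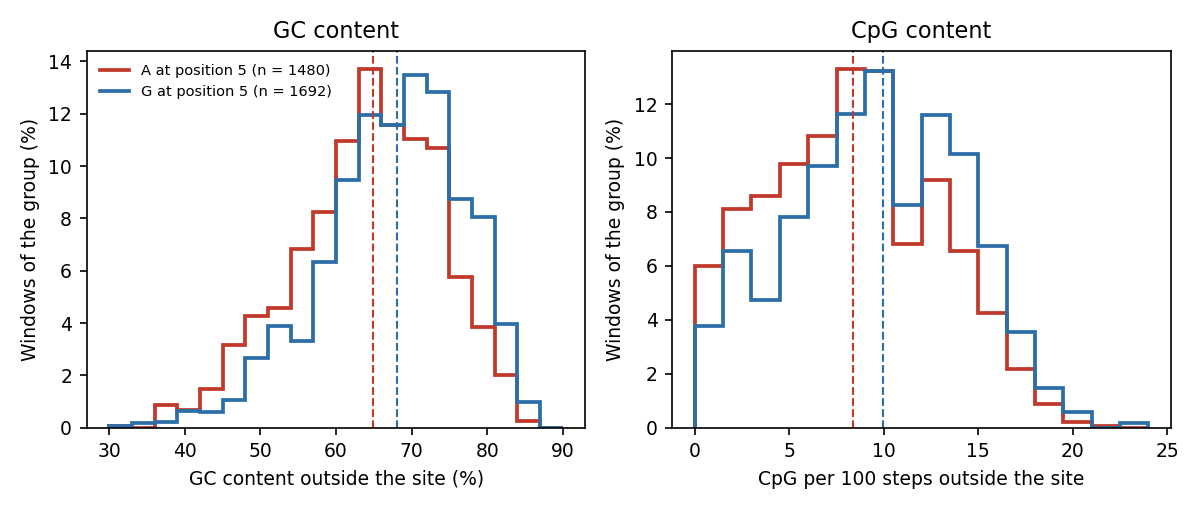
Distribution of GC content (left, percent of the 191 bases outside the site) and of CpG content (right, dinucleotides per 100 steps outside the site) in A windows (red, n = 1480) and G windows (blue, n = 1692). The vertical axis is the percent of the group's windows, and dashed lines are medians, 64.9 and 68.1% for GC and 8.38 and 9.95 for CpG. Both A distributions lie to the left of the G distributions and overlap them over most of their range.

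The GC difference was also present at equal bases elsewhere in the site. Among the 2689 windows whose other 9 bases occurred with both A and G, GC content differed by -2.52 percentage points (95% interval -3.03 to -2.01) within equal 9-base combinations, with an adjusted p of 1.6e-21. It was -2.88 points when the G windows without a possible listed counterpart were left out. Over the 8 alternatives that left the site out, the difference ran from -3.45 to -2.52 points, with adjusted p from 2.7e-32 to 1.6e-21. Over the whole window, which includes the base that chose the members, it was -3.74 points. In 7 of the 8 pairs shown above the median GC content was lower in the A windows, for example 65.4% against 75.9% in pair 7, 68.6% against 75.4% in pair 1 and 68.1% against 72.5% in pair 6. In pair 8 it was 72.8% with A and 71.2% with G.

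The share of A was lower in richer windows. A stood at position 5 in 132 of 210 windows below 50% GC (62.9%, 95% interval 55.9 to 69.4). It did so in 307 of 595 windows from 60 to 65% (51.6%, 47.5 to 55.7). At or above 75% GC it was 176 of 544 (32.4%, 28.4 to 36.5). The intervals of the lowest and highest bins did not overlap, while those of neighbouring bins did, except the last pair, where the bin from 70 to 75% had 38.1 to 45.9.

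**Figure D3:**
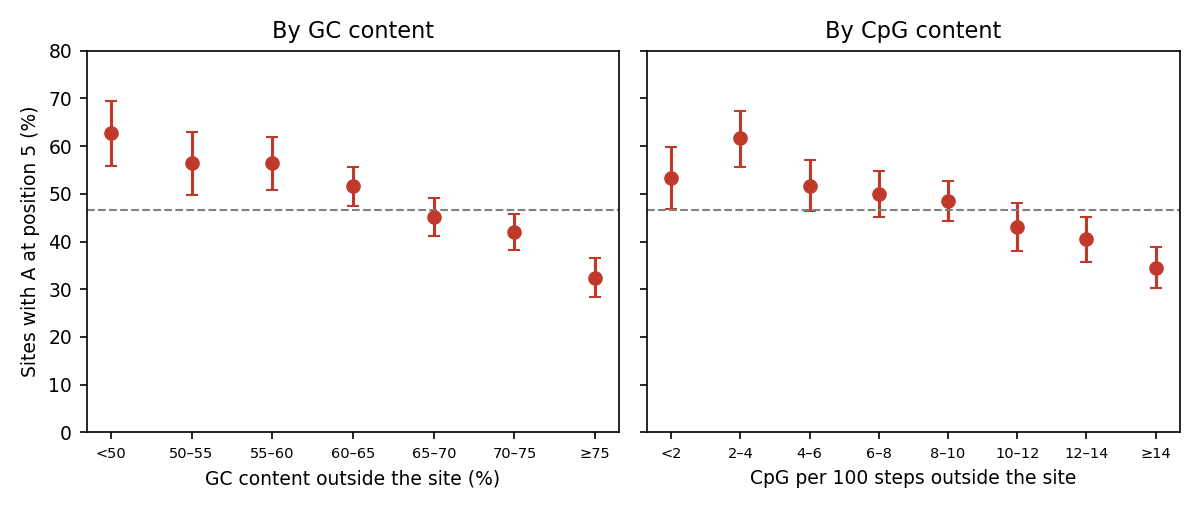
Percent of single-site windows with A at position 5 in bins of GC content (left, percent outside the site) and of CpG content (right, per 100 steps outside the site), with exact 95% intervals. The dashed line is the share over all 3172 windows, 46.7%. The share goes from 62.9% in the lowest GC bin to 32.4% in the highest, and on the CpG scale it is 53.4% below 2, 61.6% from 2 to 4 and 34.5% at or above 14.

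CpG dinucleotides, the main place of DNA methylation in mammals and dense in the islands at many promoters, were also fewer in A windows. Their CpG content outside the site was 8.30 ± 4.49 per 100 steps between neighbouring bases (SD, n = 1480), against 9.62 ± 4.59 (SD, n = 1692) in G windows. The difference was -1.32 per 100 steps (95% interval -1.62 to -1.03, adjusted p = 3.4e-18). It was of the same sign on 19 of 20 chromosomes, and chromosome X went the other way with 0.185. At equal GC content the CpG difference did not pass. With GC content in the model it was 0.09 per 100 steps (95% interval -0.04 to 0.22, adjusted p = 0.23). Within bins of GC content the medians of both groups were the same or within 0.52 of each other. From 70 to 75% GC, for example, both stood at 12.04, and below 55% both stood at 2.09.

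At the ends of the CpG scale stood very different places. The A window richest in CpG, with 21.5 per 100 steps, lay inside Klf15, a Krüppel-like transcription factor gene, at chr6:90462520-90462720. It was followed by windows near Plce1 (20.4), which encodes a phospholipase C, inside Klhl35 (19.9), near Dmxl2 (19.9) and Hs6st1 (19.4), a heparan sulfate sulfotransferase gene, and inside Zbtb2 (19.4). At the other end, 25 A windows (1.69%) and 13 G windows (0.77%) held no CpG outside the site. The A windows of this kind with the lowest GC content were 1 inside Frmd5, 101459 bp from a gene end and with 36.6% GC, and 1 outside genes whose nearest gene was Ly6c2, also with 36.6%. The next were nearest to Atl2 and Ankle1, each with 38.7% GC.

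Where the windows lay relative to genes was asked with 3 classes, by the distance of the window's midpoint to the nearest end of a protein-coding gene. The gene table carries no strand, so an end is either the start or the finish of a gene. Windows within 1 kb of an end were counted as near it, whether they lay inside or outside the gene. Outside genes therefore means outside every protein-coding gene and over 1 kb from any end. Over all 13500 windows, 13.3% lay outside genes in this sense. A windows did so more often than G windows: 218 of 1480 (14.7%, 95% interval 13.0 to 16.6) against 187 of 1692 (11.1%, 9.60 to 12.6). The odds ratio was 1.39 (95% interval 1.06 to 1.82, adjusted p = 0.027 in a logistic model clustered by chromosome). The share outside genes was higher among A windows on 14 of 20 chromosomes. Windows within 1 kb of a gene end made up 983 A windows (66.4%, 63.9 to 68.8) and 1179 G windows (69.7%, 67.4 to 71.9). That difference did not pass, with an odds ratio of 0.861 (0.730 to 1.01, adjusted p = 0.093). Windows inside genes and over 1 kb from an end numbered 279 (18.9%) and 326 (19.3%), with an odds ratio of 0.973 (0.794 to 1.19, adjusted p = 0.80), an interval that leaves room for a difference in either direction.

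With GC and CpG content in the model the odds ratio outside genes was 1.04 (95% interval 0.765 to 1.40, adjusted p = 0.82). Over its 11 alternatives the adjusted p ran from 0.0034 to 0.82. It also did not pass when all annotated genes replaced protein-coding ones (odds ratio 1.29, adjusted p = 0.22), at a score limit of 6.2 (odds ratio 1.34, adjusted p = 0.067), or within equal 9-base combinations, where the share differed by 2.21 percentage points (adjusted p = 0.24). The A median of GC content was lower in every class. Median GC content was 67.0% in A and 70.2% in G windows near gene ends, 62.3 and 65.97% inside genes, and 56.0 and 59.2% outside genes. With the class in the model the GC difference was -2.96 points (95% interval -3.50 to -2.41, adjusted p = 1.1e-25).

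**Figure D4:**
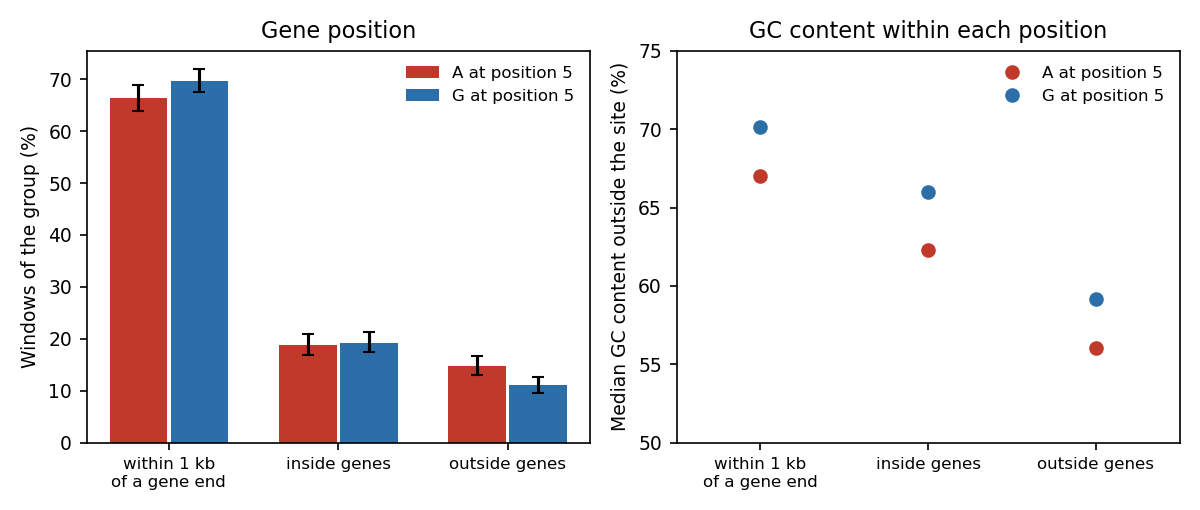
Left, percent of A windows (red, n = 1480) and G windows (blue, n = 1692) in each class of gene position, with exact 95% intervals. The classes are within 1 kb of a protein-coding gene end, and inside or outside genes over 1 kb from an end. Right, median GC content outside the site in the same classes, with the vertical axis starting at 50%. The share outside genes is 14.7% for A and 11.1% for G, and the A median lies below the G median in each class.

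For sites close to a transcription start, RefSeq promoter stretches of GRCm38.p6, from 250 bp before to 50 bp after a start, gave strand and sequence. All 814 A and G sites that fell in such a stretch had the same letters there as in the deposited list. A sites numbered 404 of these, out of 1440 on chromosomes covered by the table (28.1%, 25.7 to 30.5), and G sites 410 of 1648 (24.9%, 22.8 to 27.0). The starts of some genes on these chromosomes are not listed, so both shares count sites at listed starts only. Within 1000 bp of a listed start the order turned, with 65.8% of A sites (63.3 to 68.3) and 67.8% of G sites (65.5 to 70.1). Neither difference was tested. Within the stretch the median position of the site centre relative to the start was -43 bp for A and -49 bp for G. Of the A sites there, 221 (54.7%, 49.7 to 59.6) read in the direction of the gene, as did 227 of the G sites (55.4%, 50.4 to 60.2). The bin with most sites of either kind was 50 to 100 bp after the nearest listed start, with 138 A sites (9.58%) and 155 G sites (9.41%).

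**Figure D5:**
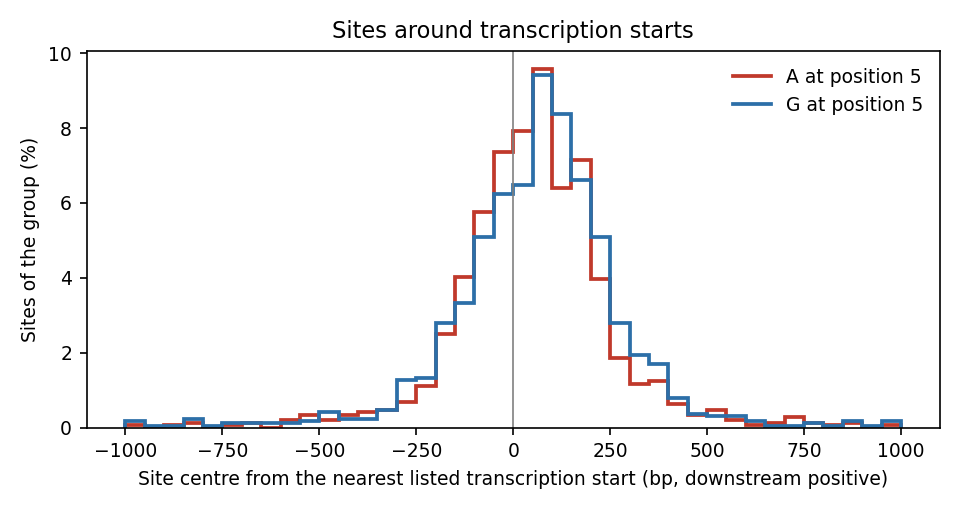
Percent of A sites (red) and G sites (blue) by the distance of the site centre from the nearest listed transcription start, in bins of 50 bp, with downstream positions positive. Both lines are highest from 50 to 100 bp downstream, at 9.58% for A and 9.41% for G, and are lower on both sides.

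Genes with an A window were counted at their ends. Of 21887 protein-coding genes, 1145 had an A window within 1 kb of an end and 1353 a G window, and 10 had both. Of the 2488 genes with either, 46.0% had an A window, and the counts of gene groups below are read against that share. The group counts are small and no group was tested. The exact interval of every group named below includes 46.0%.

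In hedgehog signalling a ligand relieves Smo of inhibition by its receptor, which frees Gli factors that Sufu holds back in the absence of ligand. Of 7 pathway genes with a window of either kind, 5 had an A window (71.4%, 95% interval 29.0 to 96.3). They were Disp1, which releases the ligand from the cells that make it, Scube2, which helps the release, Hhat, the acyltransferase that palmitoylates the ligand, Spop, an adaptor of a ubiquitin ligase that acts on Gli factors, and Sufu. The co-receptor gene Cdon and the transcription factor gene Gli3 had G windows. Scube2 had the highest site score of the 5, at 6.37, and the site centre lay at -27.5 bp from its start, at chr7:109865702-109865711, on the minus strand and in the direction of the gene. It is printed here with 10 bases on each side and the site in capitals, the fifth capital being position 5.

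Scube2: accgtgtgaaAATGAGGCCGgggctccggg

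The other hedgehog sites were actgAggctc in Disp1, at 5.54 and 89.5 bp after the start, and tgggAggctc in Hhat, at 5.71 and 472.5 bp after it. Spop had tatgAggcga at 5.72, 273.5 bp after the start, and Sufu had cacgAggctc at 5.51, 68.5 bp after the start and against the direction of the gene. The Disp1 site also read against its gene, while those of Hhat and Spop read with theirs. All 5 scores but that of Scube2 lay below the A median of 5.92. GC content outside the site ranged from 59.7% in the Spop window to 83.2% in that of Scube2.

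Of 26 listed genes that restrain the cell cycle, 4 had a single-site window below the limit, and all 4 had G. Among them were Cdkn1b, which encodes the Cdk inhibitor p27, E2f5, a repressive E2F, and Gadd45b, a stress-response gene. The exact 95% interval on 0 of 4 reaches 60.2%. Of the genes that drive the cycle, Cdc25a, the phosphatase that activates cyclin-dependent kinases, had the A site cgcgAggccc at 5.93, 170.5 bp after its start. Cdk2 had a G site at 5.99. All 3 kinesin motor genes with a window, Kif11, Kif13a and Kif22, had G, and the exact 95% interval for A reaches 70.8%.

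The Wnt list was split evenly, with 5 A and 5 G genes of 10. Its A genes were Dvl3, which relays the signal from the receptor, the receptors Fzd2 and Fzd10, Lgr4, a receptor for R-spondins, and Tcf7l2, a nuclear partner of beta-catenin. In BMP and TGF-beta signalling 1 of 5 genes had A, the receptor gene Bmpr1a, and Acvr2b, Id2 and Smad2 were among the 4 with G. In the Notch list 3 of 6 had A: the ligand gene Dll1 and the coactivator genes Maml1 and Maml2, while Hey1, Hey2 and Notch3 had G. Of 9 SWI/SNF genes with a window 3 had A (33.3%, 7.49 to 70.1). They were Arid2, Bcl7b and Bicral, against G in Arid1b, the paralogue of Arid1a, in the bromodomain subunit gene Brd7 and in the ATPase gene Smarca2. The FGF list had no window of either kind.

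A sites in promoters of the signalling genes are printed with 10 bases on each side to show the sequence around them, and the fifth capital is position 5.

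Bmpr1a: ctcgggcgagCAAGAGGCGCcggcgcgcgc
Fzd10: gcgcccggaaGAAGAGGCCAaagtttgcgc
Tcf7l2: cccctccaggAGCGAGGCCCgcaccgtccg

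The site of Bmpr1a lay at -192.5 bp from the start, at chr14:34502734-34502743 on the plus strand and against the gene, with a score of 5.74. That of Fzd10 lay at -141.5 bp, at chr5:128600960-128600969 on the plus strand and with the gene, with a score of 5.72. That of Tcf7l2 lay at -210.5 bp, at chr19:55741595-55741604 on the plus strand and with the gene, at 5.92. Their windows held 79.6, 70.2 and 75.4% GC outside the site, all above the A median.

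Odontoblast and bone genes had A in 2 of 3. Dlx3, a homeobox gene of tooth and bone, had agagAggcac at 5.93, and Sparc, which encodes the bone matrix protein osteonectin, had caagAggctt at 5.79, 181.5 bp after its start. Col1a2, a chain of type I collagen, had a G site at 6.15 that lay at -18.5 bp from its start. Among lists of markers of other cell types, the dental epithelium and immune lists, of 16 genes each, had none with an A or G window. Of 13 endothelial genes, 15 glial and neuronal genes and 10 pericyte and smooth muscle genes, 2 each had a window. The endothelial receptor genes Kdr and Tie1 had G, the neuronal genes Map2 and Snap25 had A, and the pericyte list had Abcc9 with A and Notch3 with G. The Kdr site lay 44730.5 bp after the start of Kdr, far from it, while those of Tie1 and Map2 lay at -50.5 and 39.5 bp from theirs. The deposited values do not show which cells these windows came from.

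Larger families gave shares on both sides of the background. Mitochondrial ribosomal protein genes had A in 11 of 18 (61.1%, 35.7 to 82.7), among them Mrpl46 and Mrps11, which share 1 window between them. Proteasome subunits had A in 7 of 10 (exact interval 34.8 to 93.3%), including Psma4 of the core and Psmd6, Psmd8, Psmd12 and Psmd14 of the regulatory particle. Cytosolic ribosomal protein genes had A in 9 of 20 (45.0%), and solute carriers in 15 of 32 (46.9%). Zfp zinc finger genes had A in 22 of 58 (37.9%, 25.5 to 51.6) and Tmem genes in 15 of 42 (35.7%, 21.6 to 52.0). Tetraspanins and cadherins had it in 5 of 8, forkhead genes in 1 of 5 (Foxn2), and Sox and T-box genes in 1 of 3 (Sox12, which also had a G window). Intraflagellar transport genes had it in 1 of 2 (Ift81), as did collagens (Col11a1). Rab GTPases had it in 7 of 11 and Trim and Rnf ubiquitin ligases in 10 of 16.

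Histone genes had A in 7 of 9 (77.8%, 40.0 to 97.2), but the 7 genes share 4 windows, since replication-dependent histone genes lie in clusters and often start from a common stretch in opposite directions. H2ac11 and H2bc11 share 1 window, H2ac22 and H2bc22 another, and H2ac20 and H2ac21 a further window, while H2ac19 has its own. These windows were low in GC, with 39.8, 44.5, 48.7 and 54.5% outside the site, against the A median of 64.9%. The G windows of H1f2 and H2az2 held 66.5 and 69.6%. The site between H2ac11 and H2bc11 scored 6.72, near the upper limit, at -32.5 bp from the start of H2bc11, at chr13:22043161-22043170 on the minus strand. The site between H2ac22 and H2bc22 scored 6.02 and lay at -49.5 bp from the start of H2bc22, at chr13:21787434-21787443, also on the minus strand. Both are shown with their AT-rich surroundings, the site in capitals.

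H2ac11 and H2bc11: cttcccttttAAAGAGGCCTtattcaaata
H2ac22 and H2bc22: gcgttattcaAATGAGGCTTagagatacac

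Some housekeeping genes had an A site almost at the start itself. The site shared by Mrpl46 and Mrps11 lay at -6.5 bp from the Mrpl46 start, at chr7:78783091-78783100 on the plus strand, with a score of 6.27. That of Rpl14 lay at -5.5 bp, at chr9:120571507-120571516 on the minus strand, with a score of 5.70. That of Psma4 lay 11.5 bp after the start, at chr9:54950866-54950875 on the plus strand, with a score of 5.72.

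Mrpl46 and Mrps11: cccaggttccCATGAGGCAAcgcgggccgg
Rpl14: cagcgagaagAGAGAGGGCCcgccctgccg
Psma4: ccagctgagtAAAGAGGCGCtgatctgcac

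Few genes held several A windows. Assigning each window to its nearest or containing gene, the 1480 A windows belonged to 1439 genes, of which 37 had 2 or more. Gm38510, Rere, Sertad2 and Vgll4 had 3 each. Rere encodes a nuclear receptor co-regulator and its 3 windows lay inside the gene, at 50.3, 80.6 and 55.5% GC. Vgll4, which encodes a partner of Tead transcription factors, had 2 inside the gene and 1 within 895 bp of an end. Sertad2, a transcriptional co-regulator gene, had 1 near an end, 1 inside and 1 outside, 65565 bp away. The A windows farthest from any protein-coding gene were nearest to Ddx18 at 789239 bp, Slc5a7 at 462132 bp, Actbl2 at 351627 bp and Olfr161 at 345756 bp. Their GC content of 52.9, 50.8, 49.2 and 46.1% was below the median of 56.0% for A windows outside genes.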

How the data were processed

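ATAC-seq windows of 3 libraries (2 control, 1 mutant) were analysed as a pooled list. Per the submitters' processing notes, the tools were Bowtie2 2.3.5 for mm10, MACS2 2.1.1, cutadapt 1.18, FastQC 0.11.8, bedtools, Picard and edgeR. Per the file headers, HOMER's annotatePeaks searched 1 motif in a window around each region of a union list. The sources used here do not say how that list was made. The deposited GC and CpG values are fractions of bases and of steps, turned here into percent; GC counts were whole within 0.01 in all but 2 windows and CpG counts in all but 1. The deposited site score is HOMER's log-odds score, whose log base is not stated. All 5753 sites were found in both files. Positions are in mm10, printed counting from 1.

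The 10 bases of the site, and CpG dinucleotides within it (not those across its edges), were subtracted. Gene positions and promoter sequences are RefSeq's for GRCm38.p6, on which mm10 is based. Chromosome 18 was not used for distances to transcription starts, and on other chromosomes the starts of some genes are not listed. A and G windows were compared by linear and logistic models (statsmodels 0.14.6) with errors clustered by chromosome, two-sided, adjusted over 5 comparisons by Benjamini-Hochberg at 0.05. There were at most 21 clusters, and p came from the normal distribution, so p near 0.05 is to be read with caution. The models were also run on simulated data. The outcome is not given here, so that run is no evidence that the clustered intervals and p-values are accurate. Windows are not biological replicates, and neighbouring windows can share sequence or a gene. Intervals of shares are exact Clopper-Pearson 95% intervals and cover counting error only. The members, gene lists and comparisons were chosen with earlier results of these data known. Named were the 8 most frequent A sites with their counterparts, the sites next to the score limit, up to 6 genes with A and 3 with G per list, the 6 windows at each end of the CpG scale, genes with several A windows and the 4 farthest from a gene; of these some are given by count alone, and the dental mesenchyme and homeobox lists are not reported here. H2bc22, the choice of which promoter sites to print, and the frequent G sites were picked after their values were seen. Calculations ran in Python 3.11.15 with pandas 2.3.3, scipy 1.17.1 and numpy 2.4.6, and plots in matplotlib 3.10.9.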

Additional observations from a re-analysis of the deposited data

How the results depend on the processing

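Of 52 recomputed values, 42 kept their direction and their side of the threshold, among them all 9 for GC content, of which the whole-window value counts the base that chose the members. With GC content in the model, the CpG difference turned to 0.0903 per 100 steps. With GC and CpG content in the model, the odds ratio near gene ends turned to 1.11 and that outside genes dropped to 1.04, no longer passing. At a score limit of 6.2 the odds ratio outside genes was 1.34, not passing, and that inside genes turned to 1.03. With all annotated genes these were 1.29, not passing, and 1.08, turned. Within equal 9-base combinations the share outside genes differed by 2.21 percentage points, not passing. At 3 kb from a gene end the odds ratio near ends was 0.793 and passed (adjusted p = 0.0080, over a range of 0.0080 to 0.47), and that inside genes turned to 1.11. None of the values inside genes passed, so their turns are between values near 1. Leaving out G windows whose counterpart with A would fall below the lowest listed score was chosen after seeing the data. The cause of these changes was not tested.

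No paired analysis was possible because the deposited values carry no library, and for the same reason no library was left out. Read depth is unknown, and the precision of a window's place in the list is not given here.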
